A study of Mus musculus with 6 samples.

Results

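The renin-angiotensin system was followed here through 8 of its genes in the atria of obese and lean mice. They encode the substrate (Agt), the converting enzyme (Ace), the type 1a and type 2 receptors (Agtr1a, Agtr2), a protein that binds the type 1 receptor (Agtrap), the (pro)renin receptor (Atp6ap2) and the aminopeptidases A and insulin-regulated aminopeptidase (Enpep, Lnpep). They were picked by symbol from the deposited table, which lists 43432 genes, 24679 of them with a read in any sample, and writes symbols in capitals, so that case was ignored, and each symbol matched 1 row. The tissue came from wild-type C57/Bl6J mice, 3 fed an HFD and 3 fed a control chow for 10 weeks from 6 weeks of age, and right and left atria were pooled within a sample. Diet was the only factor that differed by design, no transgene was present in either group, and the mice of the sequenced groups are called obese and lean after the diet named in the sample titles. In the treatment field of the labels the diets are swapped in all 6 samples, and every direction below rests on the titles, which match the column names of the table.

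In the classical pathway, the protease renin cuts angiotensinogen, a serpin made mainly by liver and also by fat and other tissues, to angiotensin I. Angiotensin-converting enzyme then removes a dipeptide to give angiotensin II, which acts through the type 1 receptor to constrict vessels, raise aldosterone and promote cardiac growth and fibrosis, while the type 2 receptor largely opposes these effects. Aminopeptidases shorten angiotensin II to smaller peptides, and other peptidases give rise to angiotensin 1-7, the ligand of the Mas receptor. In the heart, the system has long been studied for its part in atrial fibrosis and fibrillation.

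The values are normalized counts, that is, reads per gene divided by a single size factor per sample. Obese and lean mice were compared by limma after a log2(normalized count + 1) transformation, the scale of all log2 fold changes given. The fit took in the 15275 genes whose mean reached 10 normalized counts, and p-values were adjusted over all of these by the Benjamini-Hochberg method with a threshold of 0.05. Values after ± are SDs over 3 mice. With 3 mice per group, the lowest two-sided p of the exact permutation test is 0.1. The labels do not say that each sample was 1 animal. SDs and p-values thus cover the spread between these samples, and each sample is called a mouse here. Reads on genes ranged from 15874251 to 28971508 per sample, and 100% of the values in every sample were whole multiples of 1 read. Lean mouse 2 was the deepest sample and had the highest share of mitochondrial reads, 30.7% against 19.5% to 24.4% in the others. Obese mouse 3 stood apart from the other 2 obese mice on the second principal component, and the natriuretic peptide gene Nppb had 18872 normalized counts there, against 662 to 5214 in the other 5 mice. All 5 atrial myocyte markers were detected in every sample, and their summed level was 285064 and 285797 normalized counts in obese mice 1 and 2, 518575 in obese mouse 3 and 440112 to 480118 in lean mice. Obese mice 1 and 2 were thus below the other 4 mice. Most of that sum was the natriuretic peptide gene Nppa, which is also in the list of angiotensin II-responsive genes below. It had 171702 and 179008 normalized counts in obese mice 1 and 2, 333975 in obese mouse 3 and 263703 to 305627 in lean mice. Limma called 0 of these 5 markers, and Myl7 and Sln were lower in obese mice at an unadjusted p under 0.05, against 5.55% of all genes. The ventricular marker Myl2 was at 8176 in lean mouse 2 and between 2289.9 and 3470.0 elsewhere.

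The data showed the substrate gene at a higher level and the receptor gene at a lower level in obese atria, with the 6 mice separated by diet for both, and the converting enzyme and aminopeptidase genes at overlapping levels. Agt averaged 2.37 times its lean level, and Agtr1a 57.5% of its lean level. Neither passed the adjusted threshold. Counts sufficed to test 7 of the 8 genes, all but Agtr2, and limma called 0 of them at an adjusted p under 0.05, against 0.746% of all genes tested. At an unadjusted p under 0.05 there were 3 (Agt and Atp6ap2 higher, Agtr1a lower), against 12.2% of all genes tested. The same 3 genes had groups that did not overlap, 2 with higher obese values and 1 with lower. Among all genes tested the groups did not overlap in 18.0%, made up of 8.86% with higher and 9.17% with lower obese values. edgeR's quasi-likelihood test on the recovered reads called 0 of the 7 and DESeq2 called 1, Agt, against 0.570% and 3.58% of all genes.

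**Figure D1:**
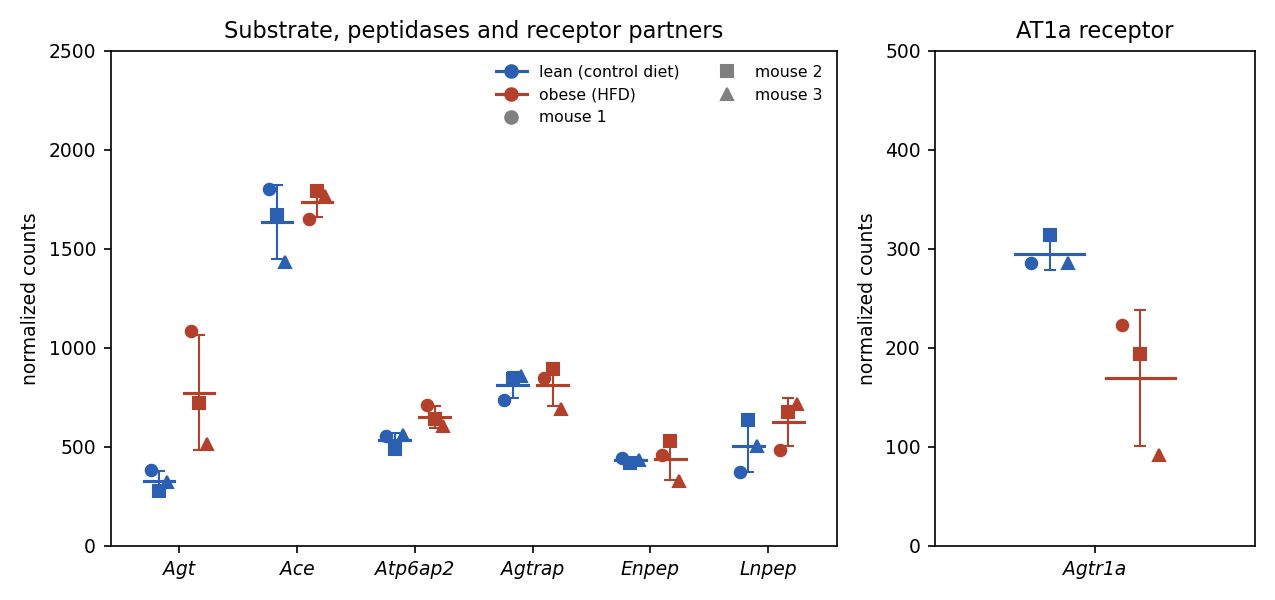
Normalized counts (y axis, linear from 0) of the 7 renin-angiotensin genes with enough counts, each point a mouse, horizontal lines the group means and bars the SD (n = 3). Agt lies at 512 to 1084 in obese mice and 276 to 381 in lean mice, and Agtr1a at 92.0 to 223 and 285 to 314, whereas the groups overlap for Ace, Agtrap, Enpep and Lnpep.

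Agt (ENSMUSG00000031980) encodes angiotensinogen and lies on the minus strand of GRCm38 at chr8:124556534-124569706. Its normalized counts were 1084, 721 and 512 in obese mice 1, 2 and 3 and 381, 276 and 321 in lean mice 1, 2 and 3. Each obese mouse was thus above each lean mouse, and the obese mice were spread widely, the highest at more than 2 times the lowest. The means were 772 ± 289 in obese and 326 ± 52.3 in lean atria, a log2 fold change of 1.19 (SE 0.24, 95% interval 0.65 to 1.72). The unadjusted p of limma was 0.000534 and the adjusted p 0.0578, and the exact permutation p was 0.1, the smallest possible. Without obese mouse 3, the lowest of the obese mice, the log2 fold change was 1.45 and the adjusted p of limma 0.00489. On the same data, DESeq2 on the recovered reads gave an adjusted p of 3.68e-05 for Agt. Over all 16 alternatives the log2 fold change of Agt lay between 0.91 and 1.45, and the adjusted p lay between 3.68e-05 and 0.237, under the threshold in 5.

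As the promoter of the gene with the largest log2 fold change of the 8, and for comparison those of the other gene that was higher in all obese mice and of Ace, whose groups overlapped, the 250 bases before the RefSeq start site (GRCm38.p6) are given 5′ to 3′ on the gene's strand, with the motifs searched in capitals. These are chr8:124569707-124569956 (minus strand) for Agt, chrX:12587509-12587758 (plus strand) for Atp6ap2 and chr11:105967698-105967947 (plus strand) for Ace.
Agt: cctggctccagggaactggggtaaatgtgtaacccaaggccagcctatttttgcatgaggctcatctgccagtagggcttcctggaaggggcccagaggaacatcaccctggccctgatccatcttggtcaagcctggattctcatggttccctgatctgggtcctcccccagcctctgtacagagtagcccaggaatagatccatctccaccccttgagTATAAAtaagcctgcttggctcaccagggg
Atp6ap2: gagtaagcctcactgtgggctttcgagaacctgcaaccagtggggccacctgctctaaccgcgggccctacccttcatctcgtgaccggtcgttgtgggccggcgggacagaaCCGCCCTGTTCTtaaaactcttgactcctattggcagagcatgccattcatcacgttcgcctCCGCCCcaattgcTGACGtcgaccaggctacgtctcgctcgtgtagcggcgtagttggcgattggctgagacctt
Ace: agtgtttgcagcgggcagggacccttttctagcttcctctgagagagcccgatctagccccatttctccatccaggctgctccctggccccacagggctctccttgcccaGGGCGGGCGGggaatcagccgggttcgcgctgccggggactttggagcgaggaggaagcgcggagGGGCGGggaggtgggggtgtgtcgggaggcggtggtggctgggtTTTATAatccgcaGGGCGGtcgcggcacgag

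Each motif was searched on both strands, and overlapping matches were counted. The TATA box was searched as TATAAA and was held by 12.4% of all 32851 windows of this length. The GC box, searched as GGGCGG, was in 32.7% of them. The E-box was searched as CACGTG and was in 6.02%. For the core of the cAMP response element the letters were TGACG, which 17.8% held. The glucocorticoid half-site was searched as AGAACA and was in 16.1%. In the Agt window the only match was a TATA box, from 30 to 25 bases before the start site. The Atp6ap2 window held 2 GC boxes on the opposite strand, the core of the cAMP response element, and a glucocorticoid half-site on the opposite strand from 131 to 126 bases before the start site, which touches a GC box without sharing a base. The Ace window held 4 GC boxes, 2 of them overlapping, and a TATA box on the opposite strand. RefSeq gives Ace another start site inside the gene, whose window at chr11:105974939-105975188 held none of the motifs. Windows were found for 7 of the 8 genes, all but Agtr1a, and a match in such a window describes letters and not binding.

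Fat cells are among the known sources of angiotensinogen, so markers of adipocytes were set beside Agt. Adipoq, which encodes the adipocyte hormone adiponectin, had 533, 146 and 170.4 normalized counts in obese mice 1, 2 and 3 and 334, 149 and 67.8 in lean mice 1, 2 and 3. Its groups overlapped, and mouse 1 was the highest of its group for Adipoq as for Agt. Of the 7 white adipocyte markers, 0 passed the adjusted threshold in limma. At an unadjusted p under 0.05 there was 1, Fabp4, against 12.2% of all genes tested. Log2 fold changes of the 7 ran from -1.41 to 0.81, with 6 positive and 1 negative. Their summed level was 6593 to 12538 in obese and 3517 to 6974 in lean mice. Most of that sum is Fabp4, a fatty acid carrier that capillary endothelium also makes, with 8820.1, 6273 and 5075 normalized counts in obese mice and 4228, 4169 and 2949 in lean mice. Brown adipocyte markers differed more. Ucp1, the uncoupling protein of brown fat, had 706, 173 and 745 normalized counts in obese mice and 86.2, 5.48 and 15.3 in lean mice, and Cidea, a lipid droplet protein, had 419, 268 and 391 against 183, 149 and 130.1. Both passed in limma (adjusted p = 0.0446 for Ucp1 and 0.0310 for Cidea). They were 2 of the 3 brown adipocyte markers tested, against 0.484% of all genes called higher. None of the 11 adipocyte markers was at 0 in all mice, and the part of adipose tissue in the Agt difference was not tested. The 2 mice with the highest Agt, obese mice 1 and 2, were also those with the lowest atrial myocyte sum, most of which is Nppa. That sum was 285064 and 285797 there, against 440112 to 518575 in the other 4 mice. Its part in the Agt difference was not tested either. In bulk tissue, more cells of a type and more RNA per cell cannot be told apart.

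**Figure D2:**
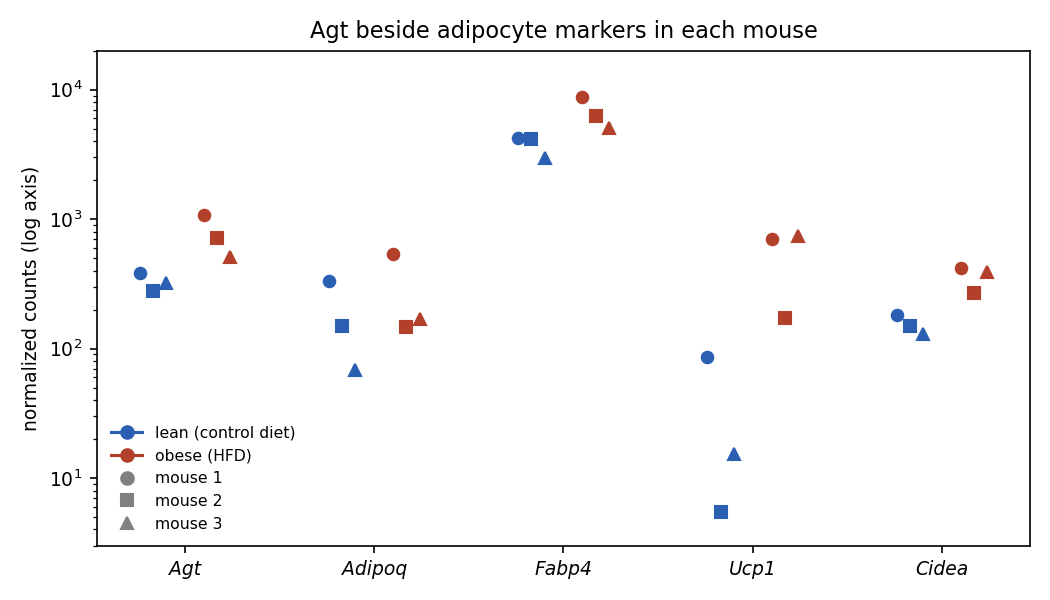
Normalized counts (y axis, log scale) of Agt and of 4 adipocyte markers in each mouse, blue for lean and red for obese, with the symbol giving the mouse number within its group. Agt, Fabp4, Ucp1 and Cidea are higher in every obese than in every lean mouse, while Adipoq overlaps, with 146 to 533 in obese and 67.8 to 334 in lean mice. The 4 markers are part of longer lists, and of the 7 white markers only Fabp4 had groups that did not overlap.

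The genes whose log2 values, each relative to its own mean, ran closest to those of Agt over the 6 mice were Srpx, Calr3 and Cdh22, with mean absolute differences of 0.10, 0.12 and 0.12 on the log2 scale. Srpx stood at 1125, 816 and 584 in obese mice 1, 2 and 3 and at 468, 352 and 419.7 normalized counts in lean mice 1, 2 and 3. Like Agt, it was highest in obese mouse 1 and lowest in lean mouse 2. The 3 genes were chosen on these same 6 values, so that a diet difference and an order of mice like those of Agt follow from the choice. Of the 3, Cdh22, which encodes a cadherin, passed in limma (log2 fold change 1.14, SE 0.21, adjusted p = 0.0397), which is thus no separate result.

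Renin itself was barely detected. Ren1, the renin gene of this strain, had 3, 12 and 0 reads in obese mice 1, 2 and 3, against 2, 3 and 0 in lean mice 1, 2 and 3, and it was too low to be tested. Its exact permutation p was 0.5, and at this depth no difference between the diets was detectable. The (pro)renin receptor gene Atp6ap2 (ENSMUSG00000031007, chrX:12587801-12617049, plus strand), whose product binds renin and its precursor and is also an accessory subunit of the vacuolar proton pump, was well expressed. Its normalized counts were 711, 637 and 604 in obese mice 1, 2 and 3 and 552, 488 and 557 in lean mice 1, 2 and 3. The groups did not overlap, but the gap between them was narrow. The means were 651 ± 54.8 and 532 ± 38.6, a log2 fold change of 0.29 (SE 0.13, 95% interval 0.01 to 0.57), with an unadjusted p of 0.0442 and an adjusted p of 0.389 in limma. Across the alternatives the log2 fold change of Atp6ap2 was 0.22 to 0.34, and the adjusted p was never below 0.268.

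The vacuolar proton pump, which acidifies lysosomes and secretory vesicles, was represented by 15 other subunit genes. Limma called 0 of the 15, against 0.746% of all genes tested, and the median log2 fold change was 0.06, against 0.00 over those genes. At an unadjusted p under 0.05, 1 was higher and 1 lower, against 6.66% and 5.55% of all genes. The higher one was Atp6v0d1, a subunit of the membrane sector, with a mean of 826 ± 79.3 in obese and 675 ± 53.8 normalized counts in lean atria (log2 fold change 0.29, adjusted p = 0.388). Atp6v1e1, of the stalk of the catalytic sector, was at 1389 ± 42.3 and 1678 ± 39.8 (log2 fold change -0.27, adjusted p = 0.307). For Atp6v1g1, also of the stalk, the log2 fold change was -0.22 (adjusted p = 0.470).

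Ace (ENSMUSG00000020681, chr11:105967945-105989964, plus strand) encodes the peptidase that makes angiotensin II and also degrades bradykinin. Ace stood at 1649, 1793 and 1766 in obese mice 1, 2 and 3 and 1800.4, 1671 and 1434 normalized counts in lean mice 1, 2 and 3. The groups overlapped, and the highest value was that of a lean mouse. The means were 1736 ± 76.3 and 1635 ± 186, a log2 fold change of 0.09 (SE 0.12, adjusted p = 0.815 in limma), and the 95% interval of the difference was -0.17 to 0.35. Of the exon bases of Ace, 5.58% are shared with an antisense gene, Gm11651, which averaged 0.735 normalized counts. The endothelium is the main site of this enzyme, and the summed level of 6 endothelial markers was 14350.0 to 16053 in obese and 12099 to 12798 in lean mice. Of the 6, 1, Pecam1, had an unadjusted p under 0.05, against 12.2% of all genes tested. The part of endothelial cells in the level of Ace was not tested.

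Of the 3 angiotensin II receptor genes, only Agtr1a (ENSMUSG00000049115, chr13:30336441-30382867, plus strand) had more than 3 reads in any mouse. It encodes the type 1a receptor, the main target of angiotensin II in mouse heart and vessels. Its normalized counts were 223, 194 and 92.0 in obese mice 1, 2 and 3 and 286, 314 and 285 in lean mice 1, 2 and 3. All 3 obese mice were below the lean mice, which lay close together, and obese mouse 3, with 81 reads, was far below the other 2. The means were 169.6 ± 68.8 and 295 ± 16.6, a log2 fold change of -0.89 (SE 0.28, 95% interval -1.52 to -0.26). The unadjusted p of limma was 0.0102 and the adjusted p 0.215, and the exact permutation p was 0.1. Without obese mouse 3 the log2 fold change was -0.50, and over all alternatives it lay between -1.14 and -0.50 with adjusted p-values of 0.0832 to 0.529, so that the direction held in all 16 and the threshold was reached in 0.

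The type 1 receptor is made by fibroblasts, pericytes and smooth muscle cells of the heart. The summed level of 6 fibroblast markers was 29977 to 33561 normalized counts in obese and 31069.6 to 36917 in lean mice, and that of 6 pericyte markers was 8968 to 10629.6 and 9092 to 10236. Both ranges overlapped between the diets. The 4 smooth muscle markers summed to 4754 to 5623 and 2675 to 5154, also with overlap. In obese mouse 3, where Agtr1a was lowest, the fibroblast sum of 29977 and the pericyte sum of 8968 were also the lowest of the 6 mice. Limma called 0 of these 16 markers, against 0.746% of all genes tested. At an unadjusted p under 0.05, 1 fibroblast marker was lower and 1 smooth muscle marker higher, against 5.55% and 6.66% of all genes. Log2 fold changes were positive for all 4 smooth muscle markers (0.37 to 1.08), 2 of 6 fibroblast markers and 2 of 6 pericyte markers. The part of these cell types in the Agtr1a difference was not tested.

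The genes closest to Agtr1a over the 6 mice were Lrtm2, Gm38082 and Hsbp1l1, with mean absolute differences of 0.12, 0.13 and 0.13 on the log2 scale. Lrtm2 stood at 20.1, 19.4 and 7.95 in obese mice 1, 2 and 3 and at 31.4, 28.7 and 32.8 normalized counts in lean mice 1, 2 and 3, with obese mouse 3 lowest as for Agtr1a. Here too the likeness follows from the choice on the same 6 values. None of the 3 genes passed in limma (adjusted p = 0.401, 0.549 and 0.507). Lrtm2 and Gm38082 had at most 42 reads in any mouse.

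The other angiotensin receptors were at or near 0. Agtr2 (ENSMUSG00000068122, chrX:21484544-21489164, plus strand), the type 2 receptor, had 3 reads in lean mouse 2 and 0 in the other 5 mice, and a count of 0 allows up to 3.01 to 3.41 normalized counts in these samples, counting error only. Agtr1b, the second type 1 receptor of rodents, had 0 reads in all 6 mice. Mas1, the receptor of angiotensin 1-7, had 28.1, 24.5 and 11.4 normalized counts in obese and 16.8, 35.6 and 13.1 in lean mice. Its groups overlapped, and the interval of its log2 fold change, -1.17 to 1.17, is too wide to exclude a change of 2 times in either direction.

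Agtrap (ENSMUSG00000029007, chr4:148077061-148088031, minus strand) encodes a membrane protein that binds the tail of the type 1 receptor and favors its internalization. Agtrap stood at 845, 890.3 and 693 in obese mice 1, 2 and 3 and 735, 840.4 and 856 normalized counts in lean mice 1, 2 and 3. The groups overlapped completely, with obese mice both highest and lowest. The means were 809 ± 103 and 810.3 ± 66.1, and the log2 fold change was -0.01 (SE 0.13, 95% interval -0.30 to 0.29, adjusted p = 0.993 in limma). Its sign changed with single mice, from -0.08 to 0.10.

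**Figure D3:**
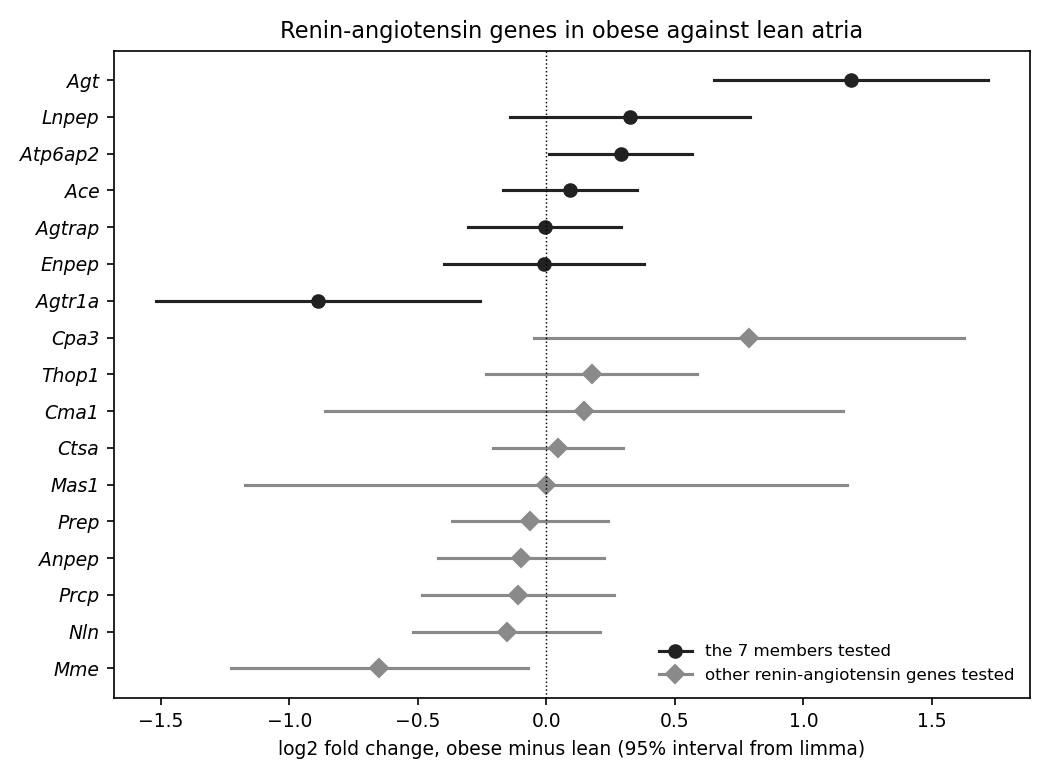
Log2 fold change of obese minus lean atria (x axis) for the 7 core genes (black circles) and 10 other renin-angiotensin genes (grey diamonds), with the 95% interval from limma (n = 3 mice per group). Agt at 1.19 and Agtr1a at -0.89 lie farthest from 0 among the 7, and Mas1, Cma1 and Cpa3 have the widest intervals.

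The 2 aminopeptidases belong to the M1 family of zinc peptidases. Enpep (ENSMUSG00000028024, chr3:129269175-129332720, minus strand) encodes aminopeptidase A, which cuts the first residue from angiotensin II. Enpep stood at 456, 529 and 326 in obese mice 1, 2 and 3 and 442, 418 and 433 normalized counts in lean mice 1, 2 and 3. The lean mice lay close together, and the obese mice lay on both sides of them, with obese mouse 3 lowest. The means were 437 ± 103 and 431 ± 12.2, a log2 fold change of -0.01 (SE 0.18, 95% interval -0.40 to 0.38, adjusted p = 0.993 in limma). Lnpep (ENSMUSG00000023845, chr17:17527723-17624489, minus strand) encodes the insulin-regulated aminopeptidase, which binds angiotensin IV and travels with the glucose transporter GLUT4. Lnpep stood at 484, 675 and 714 in obese mice 1, 2 and 3 and 371, 636 and 503 normalized counts in lean mice 1, 2 and 3. The groups overlapped, and lean mouse 1 was the lowest. The means were 625 ± 123 and 503 ± 133, a log2 fold change of 0.33 (SE 0.21, 95% interval -0.14 to 0.79, adjusted p = 0.588 in limma).

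Neither family nor partner genes of the aminopeptidases passed. Of 9 M1 aminopeptidases tested, Enpep and Lnpep included, limma called 0, against 0.746% of all genes tested. None of the 9 had an unadjusted p under 0.05, against 12.2% of all genes tested, and their median log2 fold change was 0.02. The smallest p was that of Npepps, the puromycin-sensitive aminopeptidase, at 2772 ± 217 in obese and 2393 ± 217 normalized counts in lean atria (log2 fold change 0.21, adjusted p = 0.506), and for Rnpepl1 the log2 fold change was -0.12 (adjusted p = 0.710). Among 9 genes of the GLUT4 storage vesicle, limma also called 0, with 0 at an unadjusted p under 0.05, against the same shares of all genes. Their median log2 fold change was -0.03. The number at an unadjusted p under 0.05 depended on the fit. It was 3 with DESeq2, against 1724 of 15275 genes, and 3 without obese mouse 3, against 2227 of 15297 genes. Slc2a4, which encodes GLUT4, was at 4774 ± 393 in obese and 5749.7 ± 635 in lean atria (log2 fold change -0.27, adjusted p = 0.425). Tbc1d4, the AKT substrate that holds these vesicles back, and the receptor gene Lrp1 had log2 fold changes of 0.42 and 0.29 (adjusted p = 0.447 and 0.452).

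Compared per kb of exon, the 7 genes spanned a range of levels that differed in order between the diets. The length used was that of all annotated exons merged, which can exceed that of the transcripts present. Levels of different genes thus compare only roughly. In lean atria the order was Ace at 309 ± 35.1 normalized counts per kb, Atp6ap2 at 203 ± 14.8, Agtrap at 191 ± 15.6, Agt at 172 ± 27.6, Agtr1a at 106 ± 5.95, Enpep at 91.6 ± 2.58 and Lnpep at 35.6 ± 9.37. Within the lean group the ranges of Atp6ap2 and Agtrap overlapped, as did those of Agtrap and Agt, and the other neighbours did not overlap. In obese atria Agt came first at 408 ± 153 per kb, overlapping with Ace at 328 ± 14.4, followed by Atp6ap2 at 249 ± 20.9 and Agtrap at 191 ± 24.4. Then came Enpep at 92.9 ± 21.9, Agtr1a at 60.9 ± 24.7 and Lnpep at 44.2 ± 8.71, where each neighbour pair overlapped. A ratio chosen after its values were seen is that of Agt to Agtr1a, substrate to receptor. Per kb it was 7.16, 5.48 and 8.20 in obese mice, against 1.96, 1.297 and 1.66 in lean mice, without overlap, which follows from the separate differences of both genes.

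**Figure D4:**
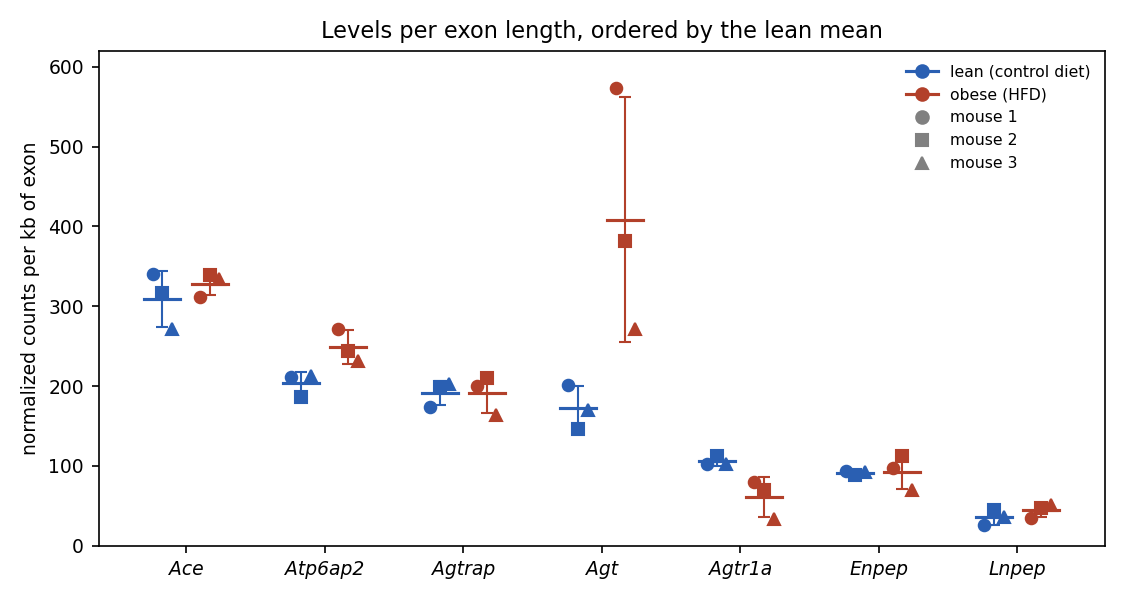
Normalized counts per kb of exon (y axis, linear from 0) of the 7 genes in the order of their lean means, each point a mouse, with group means and SD (n = 3). Agt is below Ace, Atp6ap2 and Agtrap in lean atria, at 172 on average, and first in obese atria, at 408, where obese mouse 1 reaches 573.

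Of 18 other renin-angiotensin genes listed, 17 were found in the table and 11 passed the minimum count. Limma called 0 of the 11, and 1 had an unadjusted p under 0.05, against 0.746% and 12.2% of all genes tested. The median log2 fold change of the 11 was 0.00, as over all genes tested. The gene with an unadjusted p under 0.05 was Mme, which encodes neprilysin, a peptidase that makes angiotensin 1-7 from angiotensin I and degrades natriuretic peptides. It had 105, 53.0 and 76.1 normalized counts in obese mice 1, 2 and 3 and 114, 124 and 118 in lean mice 1, 2 and 3. All obese mice were below the lean mice, with obese mouse 1 close to them. The log2 fold change of Mme was -0.65 (SE 0.26, 95% interval -1.23 to -0.07, adjusted p = 0.349 in limma). The remaining peptidases that act on angiotensins had intervals that include 0. For Anpep, aminopeptidase N, the log2 fold change was -0.10, and the carboxypeptidases Prcp and Ctsa had -0.11 and 0.05. The oligopeptidases Prep, Thop1 and Nln had log2 fold changes of -0.06, 0.18 and -0.15.

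Chymase is a route to angiotensin II that does not need ACE, and in the heart it comes from mast cells. Cma1, a mouse mast cell chymase gene, had 57.3, 27.5 and 32.9 normalized counts in obese and 58.2, 34.9 and 18.6 in lean mice, with full overlap. Cpa3, the mast cell carboxypeptidase, had 66.3, 45.9 and 38.6 against 43.7, 24.0 and 20.8, with lean mouse 1 above obese mouse 3. Its log2 fold change was 0.79 (SE 0.38, adjusted p = 0.442 in limma). Over 6 mast cell markers, both genes included, the summed level was 192 to 347 in obese and 243 to 324 in lean mice. Ctsg had 0 reads in all but 1 mouse, and Cma2 and the receptor gene Mrgprd had 0 in all. In the kinin system, whose peptides ACE breaks down, 1 of 8 genes had enough counts, the carboxypeptidase gene Cpm, with a log2 fold change of 0.05 (adjusted p = 0.970 in limma). The kinin receptor gene Bdkrb2 had 5, 14 and 0 reads in obese mice, against 3, 0 and 0 in lean mice.

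Downstream of the receptor, 30 genes of type 1 receptor coupling and desensitization were all tested. Limma called 1, which was higher, against 0.484% of all genes called higher, and 7 were higher and 0 lower at an unadjusted p under 0.05, against 6.66% and 5.55% of all genes. The median log2 fold change was 0.08. The called gene was Grk5, a kinase that phosphorylates activated receptors and so turns off their signal, with 1141, 1246 and 1053 normalized counts in obese and 694, 743 and 717 in lean mice. The groups were far apart relative to their spread, with a log2 fold change of 0.67 (SE 0.12, adjusted p = 0.0310 in limma). Grk5 kept an adjusted p under 0.05 in 9 of 16 alternatives and lost it in 5 of the 6 fits that leave out a mouse, with adjusted p-values up to 0.129, the exception being the fit without obese mouse 3. Gna12, which encodes a G protein alpha subunit that activates RhoA, was at 4199.7 ± 361 in obese and 2915 ± 368 in lean atria (log2 fold change 0.53, adjusted p = 0.0911). Plcb4, a phospholipase C of the Gq pathway, was at 1451 ± 93.3 and 1130.4 ± 63.7 (log2 fold change 0.36, adjusted p = 0.193).

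Of 26 genes known to respond to angiotensin II in heart or vessels, 25 were tested and limma called 1, which was lost in 5 of the 6 fits that leave out a mouse. At an unadjusted p under 0.05 there was no further gene of this list, against 0.746% of all genes called and 12.2% at that unadjusted p. The median log2 fold change was 0.16. Nr4a3, an early response nuclear receptor, had 91.4, 305 and 871 normalized counts in obese and 99.7, 117 and 128 in lean mice, with overlap (log2 fold change 1.34, adjusted p = 0.410). For Ncf1, a subunit of the NADPH oxidase, the log2 fold change was 0.39 (adjusted p = 0.414).

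Angiotensin II raises aldosterone, which acts through the mineralocorticoid receptor. Its gene, Nr3c2, had 364, 443 and 225 normalized counts in obese mice 1, 2 and 3 and 350.5, 435 and 492 in lean mice 1, 2 and 3, with overlap. The log2 fold change was -0.35 (SE 0.24, 95% interval -0.87 to 0.17, adjusted p = 0.609 in limma). Cyp11b2, the aldosterone synthase gene, had 0 reads in all 6 mice. Of 13 genes of aldosterone synthesis, receptor and targets, 9 were tested, limma called 0, and 4 were higher and 0 lower at an unadjusted p under 0.05. Over all genes tested, 0.746% were called, and 6.66% were higher and 5.55% lower at that unadjusted p. The largest differences were in genes that glucocorticoids also induce. Fkbp5, a co-chaperone of steroid receptors, had 1380.3, 1328 and 613 normalized counts in obese and 441, 408 and 277 in lean mice, without overlap (log2 fold change 1.497, SE 0.29, adjusted p = 0.0509). Zbtb16, a transcription factor gene that also encodes a partner of the type 2 receptor, had 666, 2632 and 826 against 353, 417 and 324 (log2 fold change 1.64, adjusted p = 0.101). For Tsc22d3, also known as GILZ, the log2 fold change was 0.46 (adjusted p = 0.250). The aldosterone-induced kinase gene Sgk1 had 864 to 988 normalized counts in obese and 719 to 784 in lean mice, without overlap. Its log2 fold change was 0.28 (unadjusted p = 0.0334 and adjusted p = 0.357 in limma).

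**Figure D5:**
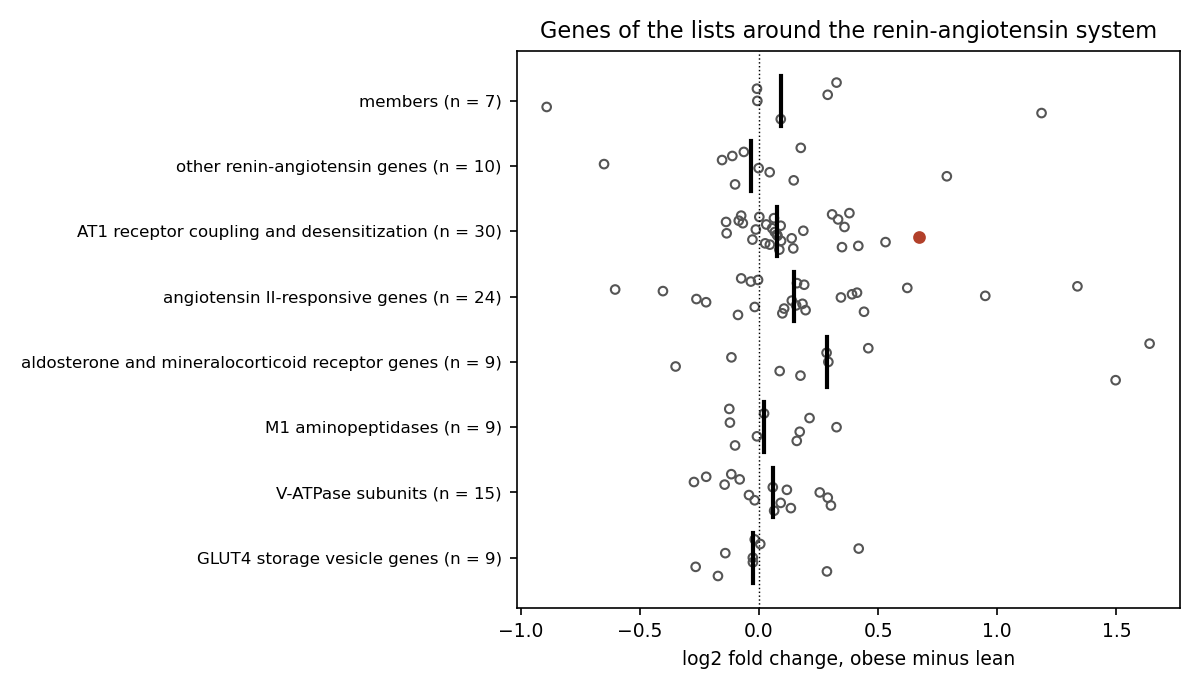
Log2 fold change of obese minus lean atria (x axis) for the tested core genes (top, members) and the tested genes of 7 lists around them, open circles for genes that did not pass and a filled red circle for an adjusted p under 0.05 in limma, with the list median as a black bar. The filled circle is Grk5 at 0.67, 1 tested gene each of the other renin-angiotensin and the angiotensin II-responsive genes is not drawn, and the medians of the genes drawn lie between -0.03 and 0.28.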

How the data were processed

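Atrial RNA libraries (NEBNext Ultra Directional kit) of 3 HFD and 3 control samples were sequenced by the authors as single-end reads. They aligned the reads with STAR to GRCm38 (Ensembl annotation), kept uniquely mapped reads, assigned them to genes with Salmon and divided the counts by DESeq2 size factors. These normalized counts are the deposited signal. The deposited table also holds the authors' log2 fold changes, p-values and scores (Wald statistic and ranking metric), which were not used. A row without a gene name, at 0 in all samples, was left out. Whether counting used strand is not given in the sources used here.

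A table of gene names matched 42462 of the 43432 identifiers (97.8%), and positions and merged exon lengths came from GENCODE M21 (GRCm38). The groups, taken from the titles, were tested in R 4.3.3 by limma 3.58.1 (lmFit, then eBayes fitting a trend of the variance), which was given log2(normalized count + 1) of genes with a mean of at least 10, without covariates. Single genes had a two-sided exact permutation test (scipy 1.17.1). Reads were recovered by dividing each sample by its smallest positive value, and all values came out whole within 0.01. edgeR 4.0.16 (quasi-likelihood, TMM) and DESeq2 1.42.0 were run on these reads as alternatives. The others were quantile normalization, no variance trend, no filter, a minimum of 10 in every sample, pseudocounts of 0.1 and 5, mitochondrial genes left out, the replicate number as a block, and each mouse left out. The limma step was tested on simulated data. No 2 replicates agreed within sampling noise. Samples of the 2 diets with the same number in the titles come from different animals.

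The 8 genes and the lists around them were chosen with earlier results of these data known. Named were the 8 genes, the other renin-angiotensin genes with a mean of at least 10 and Ren1, Mas1 and Agtr1b, the 3 genes with the smallest p of each further list, Sgk1 and Nr3c2, and for the 2 core genes with the largest log2 fold changes the 3 genes with the most similar log2 values. Markers, Ctsg, Cma2, Mrgprd, Cyp11b2 and Bdkrb2 were named after their values were seen. Results of 2 genes that this rule would name are not reported here.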

Additional observations from a re-analysis of the deposited data

How the results depend on the processing

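Of the 7 core genes tested, Agt, Ace, Agtr1a, Atp6ap2 and Lnpep kept the sign of their log2 fold change in all 16 alternatives. Agtrap and Enpep, whose values lie next to 0, did not. With 1 mouse left out, the log2 fold change of Agtrap ranged from -0.079 to 0.10 and that of Enpep from -0.16 to 0.19, and that of Enpep was 0.021 with edgeR and 0.021 with DESeq2. The number of core genes called was 0 in the limma fit and 1, in each case Agt, with no filter, with a minimum of 10 in every sample, with the replicate block and with DESeq2 (1 each). With 1 mouse left out it was 0 to 1, the 1 coming without obese mouse 3. The cause was not tested.

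Over all genes, 114 were called in the limma fit, 0 without a variance trend (1717 at an unadjusted p under 0.05), 483 with DESeq2 and 14 to 342 with 1 mouse left out. The fewest came without lean mouse 2 and the most without obese mouse 3, and 52, 24, 50 and 19 were called without obese mice 1 and 2 and lean mice 1 and 3. For type 1 receptor coupling the count was 1, and 0 without a variance trend, 0 without mitochondrial genes, 2 with DESeq2 and 0 to 2 with 1 mouse left out. For angiotensin II-responsive genes it was 1, and 0 without a variance trend and 0 to 2 with 1 mouse left out. For the aldosterone list it was 0, and 1 with no filter, 1 with a minimum of 10 in every sample, 1 with a pseudocount of 5, 2 with the replicate block, 1 with DESeq2 and 0 to 3 with 1 mouse left out. In both of these lists and in that of receptor coupling, the highest count came without obese mouse 3. The counts of the other 5 lists stayed at 0 in all alternatives.

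Deviations of same-numbered mice from their group means correlated at 0.12, -0.03 and -0.00 across genes, and not every mouse correlated best with its own number. Within a group these deviations sum to 0 for each gene, so that the check cannot exclude a shared batch behind the replicate numbers. With the replicate block, 157 genes were called in all and the adjusted p of Agt was 0.0183. Depth limits Ren1, Mas1, Agtr2, Cma1 and Cpa3, with at most 66 reads in any sample.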
